A study of Mus musculus with 8 samples.

Results

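A set of 10 Wnt pathway genes was followed in mouse melanocytes, the pigment cells of skin and hair follicle. They were taken by name as the Wnt ligands, secreted antagonists, receptors and targets Wnt5a, Wnt4, Sfrp1, Sfrp2, Dkk2, Dkk3, Wif1, Axin2, Fzd1 and Fzd7. The choice was made with earlier results of these data known. All 10 were measured, out of 22180 genes on the arrays. The arrays were 1-colour Affymetrix whole-transcript arrays, hybridised with 8 RNA samples that form 4 groups of 2. KO cells were Atg7 f/f Tyr::Cre, in which floxed Atg7 is deleted by a Cre recombinase driven by the tyrosinase promoter, so that cells without tyrosinase expression keep the gene. WT cells were Atg7 f/f without Cre and are described as autophagy competent, so both genotypes carried the floxed alleles. The cells came from pups 1 to 5 days old, were grown for 22 days in MGM-2 medium and then received 20 J/cm² of UVA-1 (long-wave ultraviolet A) or sham treatment. RNA was taken after a further 6 h. The groups were thus KO UVA, KO sham, WT UVA and WT sham, all labelled female and described as biological duplicates. Duplicates carry the numbers 1 and 2 in every group. What a number means, and how many pups gave a culture, is not stated in the labels. The p-values thus measure the spread between these samples, or between UVA minus sham differences where arrays are paired. Atg7 encodes the E1-like enzyme that autophagy needs to conjugate LC3 to lipid.

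Wnt ligands are secreted lipid-modified proteins that bind Frizzled receptors (Fzd). In the canonical branch this stabilises beta-catenin, which turns on target genes with TCF/LEF factors, and Axin2 is a general target that feeds back to limit the signal. Secreted antagonists act outside the cell: Sfrp proteins and Wif1 bind Wnt ligands, and Dkk proteins of the classical kind bind the coreceptors Lrp5 and Lrp6. In skin, Wnt signalling takes part in the specification of pigment cells from the neural crest and in their renewal in the hair follicle, and the dermis is a source of several ligands and antagonists.

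Values are intensities on a linear scale after robust multi-array averaging (RMA), and differences are on the log2 scale. The arrays' medians over the genes lay between 155 and 159. Atg7 read 804 and 602 on the KO UVA arrays, 831 and 598 on the KO sham arrays, 1004 and 832 on the WT UVA arrays and 989 and 859 on the WT sham arrays. It was lower in KO in each of the 4 matched pairs of KO and WT arrays that share treatment and number, by 0.39 on average (KO minus WT -0.39, SE 0.17, limma adjusted p = 1), while the 2 genotypes' ranges met, with 831 the highest KO value and 832 the lowest WT value. Where the probes lie relative to the deleted part is not given in the sources used here, so Atg7 checks the labels only in part. All 12 melanocyte markers were measured and lay at or above the median level of all genes. Of the 12 fibroblast markers, all were measured and 11 lay at or above that median. No marker read 0, since RMA values start at 7 here.

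The arrays split by replicate number. Sham and UVA arrays of the same genotype and number, called a pair below, correlated at 0.996 to 0.997 over all genes, against 0.962 to 0.978 for the duplicates of a group. The genotype fits count both arrays of a pair as separate samples. If they come from 1 culture, the SEs, intervals and p-values of KO minus WT averaged over treatments are too small. The matched pairs of KO and WT arrays of 1 number would then not be separate observations either. Summed over 12 fibroblast markers, intensity was 44761 and 20039 on the KO UVA arrays, 48029 and 21717 on the KO sham arrays, 44143 and 9427 on the WT UVA arrays and 45570 and 10553 on the WT sham arrays. Melanocyte markers ran the other way, with sums of 62129 and 93327 in KO UVA, 59512 and 92129 in KO sham, 58183 and 106487 in WT UVA and 61607 and 108983 in WT sham. Number 1 of every group thus had the higher fibroblast sum and the lower melanocyte sum. Within number 1 the genotypes were close, with median KO minus WT differences of -0.01 over the fibroblast markers and 0.01 over the melanocyte markers. Within number 2 the fibroblast markers were higher in KO, with a median difference of 1.11, and the melanocyte markers lower, with a median difference of -0.34. Over 6 Schwann cell markers the median KO minus WT difference was 0.53 within number 1 and 0.32 within number 2. Their sums were 4352 and 4319 in KO UVA, 4544 and 4220 in KO sham, 3264 and 3138 in WT UVA and 3402 and 3348 in WT sham. The sums of the genotypes thus did not overlap, and 0.866% of single genes had all KO arrays above all WT arrays. Within number 1 all 6 markers were higher in KO, and within number 2 there were 5 higher and 1 lower. Sizes were uneven, with 0.87 and -0.21 within numbers 1 and 2 for S100b and 0.19 and 1.74 for Gap43. Melanocytes, which share the neural crest origin, express some of these markers. These values stand beside the genotype results below, and their part in any Wnt gene's difference was not tested. In bulk RNA, fewer cells of a type and less RNA per cell cannot be told apart.

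**Figure D1:**
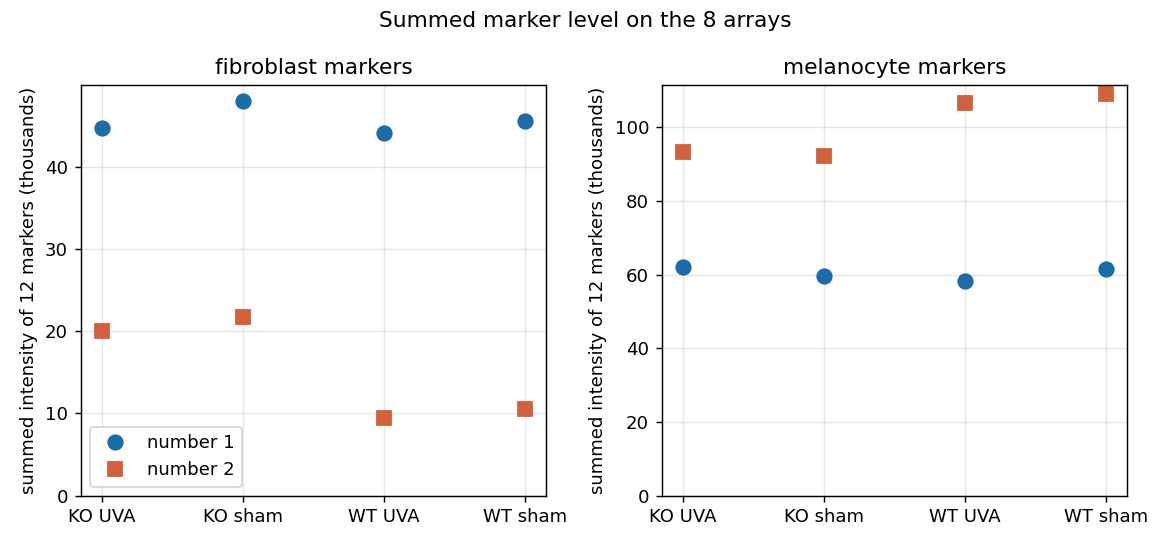
Summed RMA intensity of 12 fibroblast markers (left) and 12 melanocyte markers (right) on the 8 arrays, with groups on the x axis, circles for number 1 and squares for number 2. The fibroblast sum of number 2 was 20039 and 21717 in KO, against 9427 and 10553 in WT, while all 4 number 1 arrays lay between 44143 and 48029.

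Promoter windows were at hand for 7 of the 10 genes, from RefSeq on GRCm38.p6, and run from 250 bases before to 50 bases after the annotated start. The windows of 3 genes are shown 5′ to 3′: Dkk2, for its lower level after UVA, Sfrp2, for its higher level in KO, and Axin2, as the usual readout of canonical signalling. Capitals mark matches to the 3 motifs searched, which were CTTTGA, the core letters bound by TCF/LEF factors (both strands), TGANTCA, the AP-1 site (both strands), and TATAAA, the TATA box (printed strand).
Dkk2 (chr3:132085042-132085341, plus strand): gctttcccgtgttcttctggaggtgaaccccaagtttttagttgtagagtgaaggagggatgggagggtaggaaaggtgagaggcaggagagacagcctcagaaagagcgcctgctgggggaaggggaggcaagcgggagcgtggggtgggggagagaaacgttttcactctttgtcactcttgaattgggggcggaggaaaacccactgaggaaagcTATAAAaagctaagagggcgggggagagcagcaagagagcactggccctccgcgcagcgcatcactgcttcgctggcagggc
Sfrp2 (chr3:83766071-83766370, plus strand): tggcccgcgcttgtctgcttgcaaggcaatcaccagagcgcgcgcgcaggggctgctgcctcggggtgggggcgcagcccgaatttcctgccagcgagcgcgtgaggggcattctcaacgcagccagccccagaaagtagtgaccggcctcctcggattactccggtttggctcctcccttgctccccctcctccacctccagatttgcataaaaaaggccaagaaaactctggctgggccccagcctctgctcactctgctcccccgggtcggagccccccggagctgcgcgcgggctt
Axin2 (chr11:108920099-108920398, plus strand): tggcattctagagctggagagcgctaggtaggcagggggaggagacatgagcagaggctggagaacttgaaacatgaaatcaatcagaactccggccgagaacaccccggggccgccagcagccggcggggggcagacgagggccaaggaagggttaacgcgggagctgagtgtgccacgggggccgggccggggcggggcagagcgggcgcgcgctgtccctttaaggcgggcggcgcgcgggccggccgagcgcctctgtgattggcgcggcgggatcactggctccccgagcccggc
The only match in these 3 windows was TATAAA in Dkk2, which starts 32 bases before the annotated start, a motif held by 8.32% of all 32851 windows. CTTTGA was held by 16% of all windows and, among the 7 genes, by Fzd1 alone. TGANTCA was held by 7.81% of all windows and by 0 of the 7. G and C made up 57.7% of the Dkk2 window, 66% of the Sfrp2 window and 70% of the Axin2 window, against a median of 52.7% over all windows. The Dkk2, Sfrp2 and Axin2 windows held 11, 22 and 31 CpG dinucleotides, and the median window held 7. These matches describe the letters only.

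Wnt5a, a ligand best known for signalling independent of beta-catenin, read 1571 and 886 in KO UVA, 1780 and 1019 in KO sham, 1710 and 298 in WT UVA and 1782 and 378 in WT sham. Number 1 was high in every group, and number 2 was lower in all, most of all in WT, so the genotypes overlapped. Within number 1, KO minus WT was -0.06, and within number 2 it was 1.50, beside the fibroblast marker medians of -0.01 and 1.11. Averaged over both, the difference was 0.72 (SE 0.73, limma adjusted p = 1). Once the replicate number was fitted as a block, the SE was 0.30 and the adjusted p was 0.563. Wnt4, a ligand with roles in kidney and gonad development, read 156 and 174 in KO UVA, 159 and 224 in KO sham, 159 and 167 in WT UVA and 181 and 182 in WT sham. Its KO arrays spanned the WT range on both sides, and the averaged difference was 0.04 (95% interval -0.27 to 0.34). Its range over the 8 arrays was 0.52 log2 units, against 2.58 for Wnt5a.

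**Figure D2:**
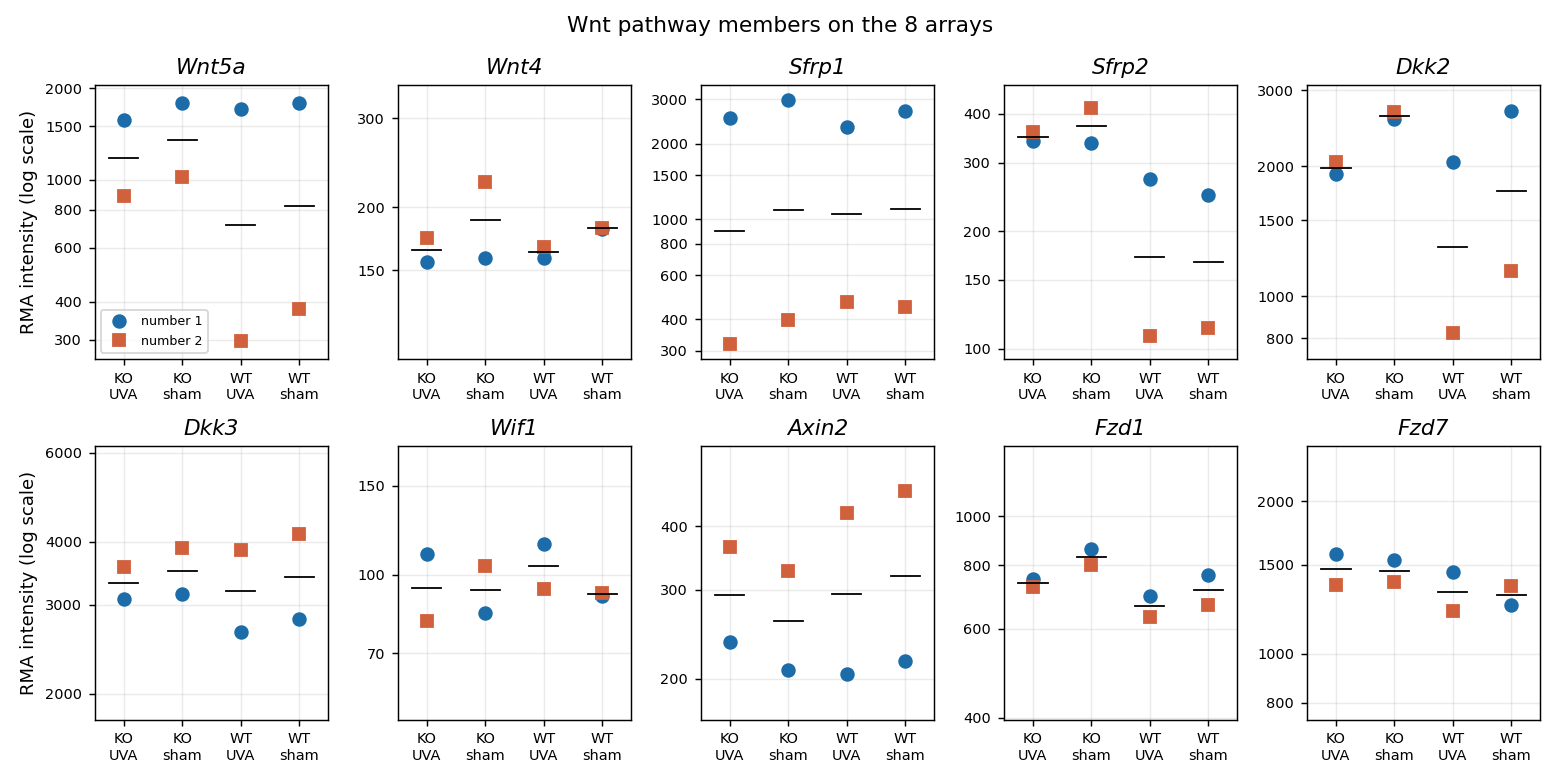
RMA intensity of each of the 10 genes on the 8 arrays (y axes on a log scale with a range of their own), with groups on the x axis, circles for number 1, squares for number 2 and a line for each group's mean of log2 values. Sfrp1 separates by number in every group, and Dkk2 lies lower in UVA than in sham for both numbers of both genotypes. The KO arrays of Sfrp2 all lie above its WT arrays, as for 0.866% of all genes, in a difference that did not pass the threshold. Its WT arrays also split by number.

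Sfrp1, which binds Wnt ligands, read 2517 and 320 in KO UVA, 2978 and 397 in KO sham, 2335 and 470 in WT UVA and 2691 and 447 in WT sham. The lowest number 1 array, at 2335, was far above the highest number 2 array, at 470, in both genotypes alike. Number 1 minus number 2 was 2.94 in KO and 2.45 in WT, the widest spread of the 10 genes. KO minus WT was 0.13 within number 1 and -0.36 within number 2, and averaged -0.12 (SE 1.11, limma adjusted p = 1, with the replicate block SE 0.11 and adjusted p = 0.787).

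Sfrp2, a close relative of Sfrp1, read 340 and 359 in KO UVA, 336 and 413 in KO sham, 273 and 108 in WT UVA and 247 and 113 in WT sham. The lowest KO array, at 336, lay above the highest WT array, at 273, so the genotypes did not overlap. Of all genes, 0.866% had all 4 KO arrays above all 4 WT arrays, and Sfrp2 was the 1 of 10 here. None of the 10 had all KO arrays below all WT arrays, against 0.942% of all genes. In order, the group means were 374.5 ± 54.4 in KO sham, 349.5 ± 13.4 in KO UVA, 190.5 ± 117 in WT UVA and 180 ± 94.8 in WT sham (SD, n = 2 each). The 2 KO groups differed by less than the KO sham SD but by more than the KO UVA SD. The 2 WT groups differed by less than either of their SDs. KO minus WT was 0.38 within number 1 and 1.80 within number 2, beside the fibroblast marker medians of -0.01 and 1.11 and the Schwann cell marker medians of 0.53 and 0.32. Their part in the Sfrp2 difference was not tested. The average was 1.09, or 2.13-fold, with an SE of 0.37 and a 95% interval of 0.19 to 1.99. Its unadjusted p in limma was 0.0253 and its adjusted p over all genes was 1, and with the replicate block they were 0.00609 and 0.452, so the difference did not pass the threshold. A second, dimmer probe set of Sfrp2 read 83 and 78 in KO UVA, 99 and 83 in KO sham, 79 and 68 in WT UVA and 90 and 79 in WT sham, a KO minus WT difference of 0.12. The mean of both probe sets gave 0.61, so the size depends on the probe set.

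Dkk2, a Dkk protein that binds Lrp5 and Lrp6, read 1918 and 2041 in KO UVA, 2569 and 2672 in KO sham, 2050 and 823 in WT UVA and 2685 and 1145 in WT sham. The KO duplicates lay close together, number 1 of WT lay close to them, and number 2 of WT was low under both treatments. KO minus WT was -0.08 within number 1 and 1.27 within number 2, and averaged 0.59 (SE 0.37, limma adjusted p = 1, with the replicate block SE 0.26 and adjusted p = 0.573). As for Wnt5a, these stand beside fibroblast marker medians of -0.01 within number 1 and 1.11 within number 2. Dkk3, a member of the family that does not act as a classical Lrp antagonist, read 3088 and 3560 in KO UVA, 3146 and 3895 in KO sham, 2657 and 3848 in WT UVA and 2808 and 4145 in WT sham. All 4 number 2 arrays lay above all 4 number 1 arrays, and KO minus WT averaged 0.04 (95% interval -0.41 to 0.50). Wif1, which binds Wnt ligands directly, read 110 and 81 in KO UVA, 84 and 104 in KO sham, 115 and 94 in WT UVA and 91 and 92 in WT sham. Its level was the only one of the 10 below the median of all genes, and its KO arrays (81 to 110) overlapped its WT arrays (91 to 115).

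Fzd1, a Wnt receptor, read 752 and 724 in KO UVA, 864 and 802 in KO sham, 697 and 633 in WT UVA and 765 and 668 in WT sham. KO was above WT in each of the 4 matched pairs, by 0.14 within number 1 and 0.23 within number 2, while the genotypes overlapped. The average of 0.19 had an SE of 0.10 (limma adjusted p = 1), and with the replicate block an SE of 0.06 and an adjusted p of 0.517. Fzd7, a receptor of the same subfamily, read 1573 and 1368 in KO UVA, 1534 and 1388 in KO sham, 1449 and 1212 in WT UVA and 1248 and 1362 in WT sham. It too was above WT in each of the 4 matched pairs, by an average of 0.15 (SE 0.11, adjusted p = 1). Both receptors differed little by number, with ranges over the 8 arrays of 0.45 log2 units for Fzd1 and 0.38 for Fzd7.

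Axin2, the feedback inhibitor used as a readout of canonical Wnt signalling, read 236 and 364 in KO UVA, 208 and 326 in KO sham, 204 and 425 in WT UVA and 217 and 470 in WT sham. Number 2 was above number 1 in every group, the opposite order to Wnt5a and Sfrp1. KO minus WT was 0.07 within number 1 and -0.38 within number 2, and averaged -0.15 (SE 0.37, limma adjusted p = 1). A second, dimmer probe set of Axin2 spanned 118 to 156 in KO and 128 to 140 in WT, with a KO minus WT difference of -0.06.

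**Figure D3:**
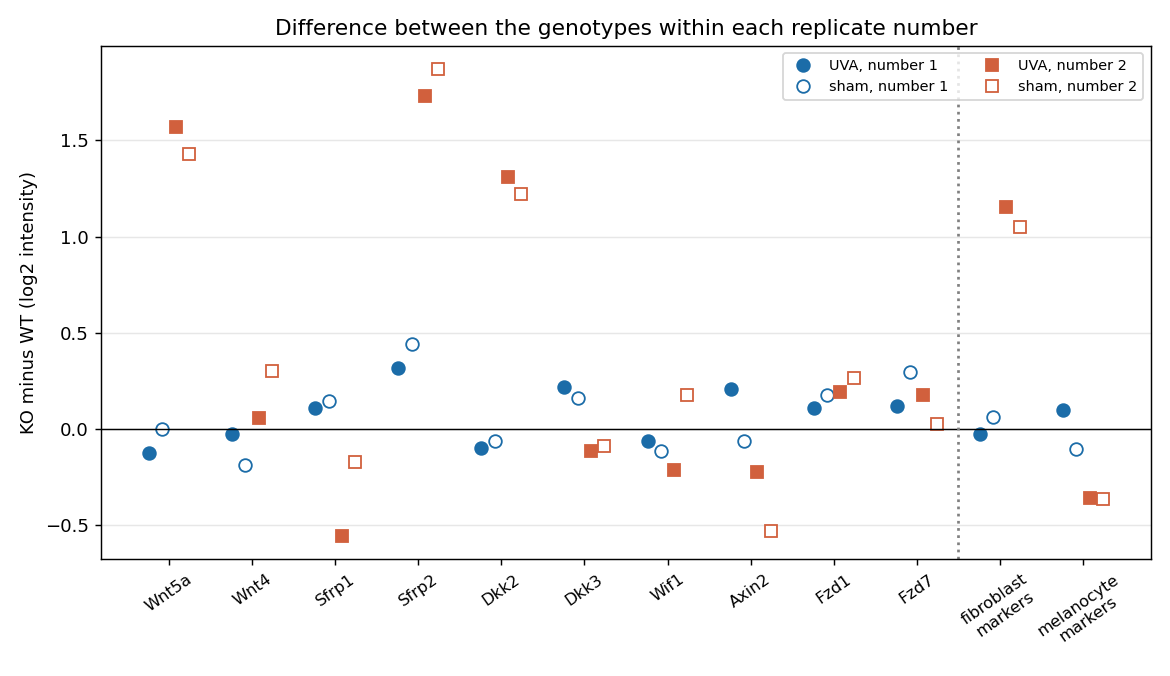
KO minus WT difference in log2 intensity (y axis) of each of the 10 genes, and the median over the 12 fibroblast and 12 melanocyte markers (right of the dotted line), for UVA and sham arrays of each number. The number 2 points of Wnt5a, Sfrp2, Dkk2 and the fibroblast markers lie above 1, while their number 1 points lie between -0.12 and 0.44.

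Across the genotype comparison as a whole, none of the 10 genes passed the adjusted threshold of 0.05 in limma, where 0% of all genes did. At an unadjusted p under 0.05 there was 1 of the 10 (Sfrp2), against 2.33% of all genes. With the replicate block 0 of the 10 passed, against 0.0316% of all genes. KO was above WT in all 4 matched pairs for 3 of the 10, namely Sfrp2, Fzd1 and Fzd7, against 7.65% of all genes, and below WT in all 4 pairs for 0 of the 10, against 7.78%. Matched pairs of the same number are not separate observations if their sham and UVA arrays share a culture. The median KO minus WT difference over the 10 was 0.10, with 7 positive and 3 negative, beside a median of -0.01 over all genes. After sham alone 8 of the 10 differences were positive, and after UVA alone 7 of the 10. By number, all number 1 arrays lay above all number 2 arrays for Wnt5a and Sfrp1 (15.5% of all genes) and below them for Dkk3 and Axin2 (16.6% of all genes). The range over the 8 arrays was above 1 log2 unit for 5 of the 10, namely Wnt5a, Sfrp1, Sfrp2, Dkk2 and Axin2, against 11.3% of all genes. As the 10 were chosen with earlier results of these data known, their shares set against all genes are not independent comparisons.

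UVA was followed by a lower Dkk2 level in every pair of sham and UVA arrays that share genotype and number. UVA minus sham was -0.42 and -0.39 in the KO pairs and -0.39 and -0.48 in the WT pairs, an average of -0.42, or 0.748-fold. In the limma fit on 4 group means the adjusted p was 1 (SE 0.37), as 0% of all genes passed there and 1.81% had an unadjusted p under 0.05. With each pair as a block, Dkk2 fell by 0.42 (SE 0.04, 95% interval -0.52 to -0.32, limma adjusted p = 0.0104), and was the 1 of the 10 that passed, against 0.437% of all genes and 0.198% that were lower. It stood 17th of the 97 genes called. That fit leaves few residual degrees of freedom, and without any 1 of the 4 pairs the adjusted p of Dkk2 was between 0.527 and 0.694, with differences of -0.44 to -0.40. Without the trend on the mean level its adjusted p was 0.225, and with the replicate number as the only block it was 0.861, where 0.0135% of all genes passed.

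Single markers of several cell types were lower after UVA in the same pairs, while most lists as a whole moved little. Of the 12 fibroblast markers 10 were lower on average, with median UVA minus sham differences of -0.09 and -0.09 in the KO pairs and 0.03 and -0.12 in the WT pairs. Of the 12 melanocyte markers 7 were lower and 5 higher on average, with a median of -0.015. Of the 6 Schwann cell markers 4 were lower and 2 higher, with a median of -0.012. With the pair block, 1 marker each of the fibroblast, melanocyte and Schwann cell lists was called lower. Pdgfrb, a fibroblast marker, fell by 0.28 on average (SE 0.04, limma adjusted p = 0.0485), with -0.28 and -0.28 in the KO pairs and -0.21 and -0.37 in the WT pairs. Mc1r, the melanocortin receptor of melanocytes, fell by 0.30 (SE 0.04, limma adjusted p = 0.0347). Ngfr, a neurotrophin receptor on the Schwann cell list, fell by 0.52 (SE 0.06, limma adjusted p = 0.0222), with -0.56 and -0.35 in the KO pairs and -0.54 and -0.61 in the WT pairs. The part of these cell types in the Dkk2 difference was not tested.

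Among the other 9 genes no UVA difference passed the threshold with the pair block. Wnt5a was below sham in each of the 4 pairs, by -0.18 and -0.20 in KO and -0.06 and -0.34 in WT (average -0.20, SE 0.06, limma adjusted p = 0.220). Fzd1 was likewise below sham in each pair, with an average of -0.14 (SE 0.05, limma adjusted p = 0.312). Sfrp1 was below sham in 3 of 4 pairs, with an average of -0.17 (SE 0.06, limma adjusted p = 0.268). Wnt4 (average -0.18, 95% interval -0.36 to 0.01, limma adjusted p = 0.440) and Dkk3 (average -0.09, 95% interval -0.17 to 0.00, limma adjusted p = 0.404) were below sham in all 4 pairs, with intervals that reached past 0. The averages of Sfrp2 (-0.03), Axin2 (0.03), Fzd7 (0.02) and Wif1 (0.10) also had 95% intervals that held 0. In all, 5 of the 10 were below sham in all 4 pairs, against 9.08% of all genes, and 0 of the 10 were above sham in all 4, against 10.6%. Here too the choice of the 10 with earlier results known makes this no independent comparison. The median UVA minus sham difference over the 10 was -0.11, with 3 positive and 7 negative, while that over all genes was 0.00.

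**Figure D4:**
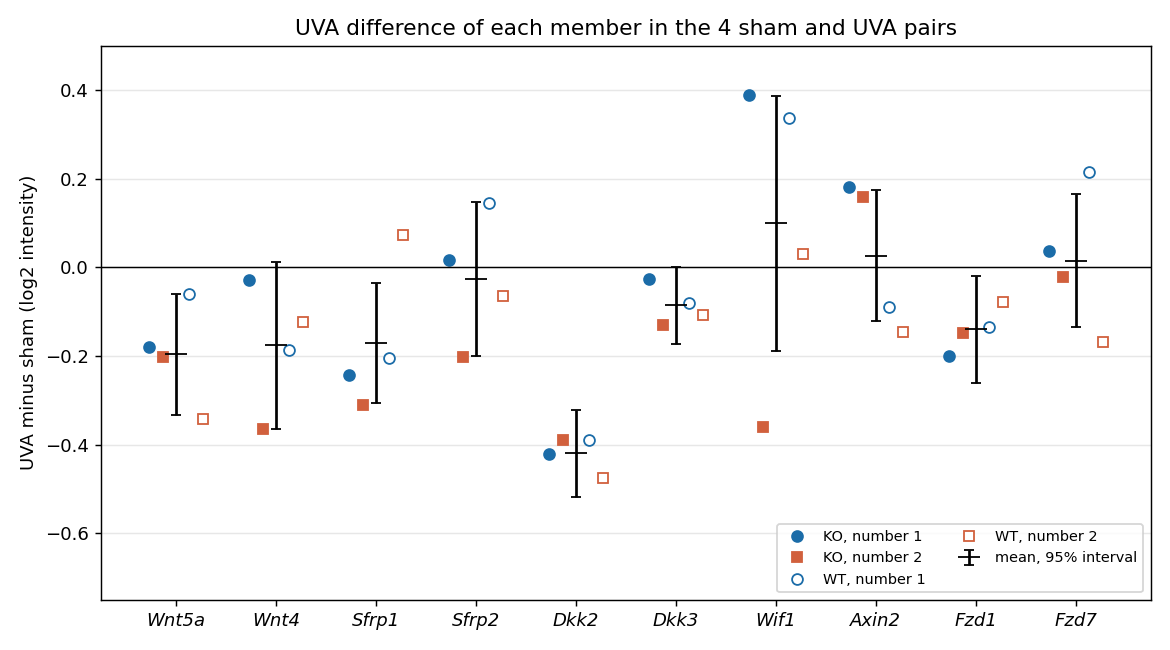
UVA minus sham difference in log2 intensity (y axis) of each of the 10 genes in the 4 pairs that share genotype and number, with the mean and its 95% interval from the fit with the pairs as blocks. All 4 points of Dkk2 lie between -0.48 and -0.39, and the 2 KO points of Axin2 lie above 0 with its 2 WT points below.

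Whether the UVA difference depends on the genotype was tested as the interaction. None of the 10 genes passed in limma, with adjusted p-values of 1 without a block and with either block, where 0% of all genes passed. In limma 1.33% of all genes had an unadjusted p under 0.05 without a block, and 3.45% with the pair block. For Dkk2 the interaction was 0.03 (SE 0.09 with the pair block). Axin2 was the 1 of the 10 in which UVA was above sham in both KO pairs, by 0.18 and 0.16, and below sham in both WT pairs, by -0.09 and -0.15. Of all genes 2.94% showed this pattern, and 4.51% the opposite one, which none of the 10 showed. Its interaction was 0.29 (SE 0.13 with the pair block, unadjusted p = 0.0540, limma adjusted p = 1).

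The wider pathway was read from a list of 110 Wnt genes, of which 107 were measured. No gene of it passed in the genotype comparison, without or with the replicate block (limma). The largest differences among the ligands with the same sign in both numbers were those of R-spondins, secreted proteins that enhance Wnt signalling. Rspo3 read 282 and 163 in KO UVA, 383 and 165 in KO sham, 234 and 101 in WT UVA and 263 and 103 in WT sham, a difference of 0.41 within number 1 and 0.69 within number 2 (average 0.55, with the replicate block SE 0.10 and limma adjusted p = 0.320). Each KO array of Rspo3 lay above the WT array of its own treatment and number, as for 7.65% of all genes, though the genotypes overlapped. The choice by sign in both numbers favours that pattern. Rspo4 averaged 0.45, with 0.01 within number 1 and 0.90 within number 2.

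Apcdd1, a membrane-bound Wnt inhibitor, differed by 0.11 within number 1 and 1.190 within number 2, and Ptk7, a coreceptor of planar cell polarity signalling, by 0.05 and 1.24. These stand beside fibroblast marker medians of -0.01 and 1.11, whose part in the differences was not tested. Apcdd1 averaged 0.65 (with the replicate block SE 0.22, limma adjusted p = 0.529). Kremen1, a receptor for Dkk proteins, averaged 0.25. Of the 23 receptors and coreceptors 17 were higher on average and 6 lower, beside 7 and 8 of 15 antagonists, 13 and 10 of 23 ligands, 23 and 11 of 34 intracellular genes, 10 and 9 of 19 targets and 1 and 1 of 2 secretion genes. Over the 107 genes 66 differences were positive and 41 negative with a median of 0.02, beside -0.01 over all genes. Of all 22180 genes, 10164 differences were positive and 12007 negative. Within number 1 alone 52 of the 107 were higher and 55 lower, and within number 2 alone 66 were higher and 41 lower. The receptors and coreceptors divided likewise, with 11 higher and 12 lower within number 1 and 18 higher and 5 lower within number 2.

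Lower values in KO were fewer among the named genes. Prickle1, a planar cell polarity protein, read 285 and 493 in KO UVA, 263 and 481 in KO sham, 334 and 816 in WT UVA and 311 and 894 in WT sham, an average of -0.52 (with the replicate block SE 0.13, limma adjusted p = 0.424). Ccn4, a beta-catenin target, averaged -0.33, with -0.37 within number 1 and -0.29 within number 2 (with the replicate block SE 0.07, limma adjusted p = 0.345). For both genes each KO array lay below the WT array of its own treatment and number, as for 7.78% of all genes. Both were named for large differences of 1 sign in both numbers, which favours that pattern. Bcl9, a beta-catenin cofactor, averaged 0.25.

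In the UVA comparison Dkk2 was the only gene of the 107 that passed with the pair block. Daam2, a formin of Wnt signalling, averaged -0.43 (SE 0.08, limma adjusted p = 0.0714), and Tnfrsf19, a Wnt target, -0.35 (SE 0.07, limma adjusted p = 0.0885). Daam2 read 162 and 262 in KO UVA, 198 and 364 in KO sham, 124 and 303 in WT UVA and 194 and 376 in WT sham, so each UVA array lay below its sham partner. Tnfrsf19 did the same, with 168 and 232 in KO UVA, 190 and 306 in KO sham, 149 and 285 in WT UVA and 200 and 379 in WT sham. Of all genes 9.08% had UVA below sham in all 4 pairs. Both genes were named for large differences of 1 sign in both numbers, which favours that pattern. Mitf, the master transcription factor of melanocytes and a Wnt target there, averaged -0.23, with -0.44 within number 1 and -0.02 within number 2. Tcf7l2, a TCF factor, averaged -0.22, Frzb, a further secreted antagonist, -0.18, and Fzd8 0.15. Porcn and Wls, which lipidate and export Wnt ligands, averaged -0.15 and -0.08. By role, UVA was above sham on average for 12 of 23 ligands, 0 of 2 secretion genes, 6 of 15 antagonists, 8 of 23 receptors, 22 of 34 intracellular genes and 6 of 19 targets. Over the 107 genes 50 were above sham and 57 below, with a median of -0.01.

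For the 5 genes with a range above 1 log2 unit, the 3 genes with the most similar profile over the 8 arrays were found by the root mean square difference of centred log2 values. The nearest to Wnt5a were Ppef1 (0.089 log2 units), Thbs2 (0.094) and Col6a3 (0.097), the last 2 encoding matrix proteins. Thbs2 read 14107 and 7393 in KO UVA, 14217 and 7469 in KO sham, 13036 and 2487 in WT UVA and 14253 and 2784 in WT sham. Nearest to Sfrp1 were C430002N11Rik (0.12), Cpxm2 (0.16) and Ttc9 (0.20). Sfrp2 had Htr1b (0.15), Mmp3 (0.15) and Ank (0.15), and Dkk2 had Hoxc8 (0.10), Snx24 (0.10) and 1500009L16Rik (0.12). Axin2 had Tmem268 (0.049), Miga1 (0.062) and Rnaseh2b (0.063). From these 5 genes to the rest of the 10, the smallest distance was that of Axin2 and Dkk3, at 0.27 log2 units. Dkk3 was the 1574th nearest gene to Axin2. Among the 5 themselves the nearest pair was Sfrp2 and Dkk2 at 0.33 log2 units, where Dkk2 was the 44th nearest gene to Sfrp2 and Sfrp2 the 198th nearest to Dkk2. Pairs without any of the 5 were not compared. These likenesses share the 8 arrays and their split by number.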

How the data were processed

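RNA of 8 samples was hybridised to 1-colour arrays. Per the submitters' processing notes, the authors made the deposited intensity values by RMA in Affymetrix Expression Console 1.3.1.187. They proved to be whole numbers of 7 to 22585 on a linear scale, although log2 values had been assumed, so log2 was taken here. The genome build used is not given in the sources used here. Of 41345 probe sets, 23521 had a single gene symbol. For genes with several, the set with the highest mean was kept, which left 22180 genes, of which 21994 matched the RefSeq table.

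Differences were tested with limma 3.58.1 (R 4.3.3), with a mean per group, eBayes with a trend, two-sided, and Benjamini-Hochberg adjustment over all genes at 0.05. The script was tested on simulated data. For genotype these held no split by number, so that check does not cover the split seen here. Alternatives were the replicate number as a block, each genotype and number as a block, other filters and scalings, and leaving out arrays. The number of arrays limits the precision. Deviations from the group means of same-numbered arrays correlated at 0.80 to 0.92 over 6 pairs of groups, so numbers were treated as pairs, which rests on the data and the shared numbers.

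The text names the 10 genes, the listed genes that passed any fit, the 2 genes per role with the largest same-signed difference and a mean at or above the median, and the 3 nearest profiles. Members and lists were chosen with earlier results of these data known.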

Additional observations from a re-analysis of the deposited data

Results flagged for a closer look

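Axin2 drew attention because its UVA difference ran in opposite directions in the genotypes. UVA minus sham was 0.18 and 0.16 in the 2 KO pairs and -0.09 and -0.15 in the 2 WT pairs. The difference between these responses was 0.29 on the log2 scale, and the interaction test did not pass (limma adjusted p = 1 with the pair block). A pattern of this direction was shown by 2.94% of all genes and the opposite pattern by 4.51%. The dimmer Axin2 probe set read 120 and 118 in KO UVA, 120 and 156 in KO sham, 129 and 140 in WT UVA and 128 and 137 in WT sham, so there UVA was above sham in neither KO pair and above sham in both WT pairs.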

How the results depend on the processing

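With the replicate block, 0 of the 10 genes passed in each of the 7 comparisons, as without it, so the replicate block changed no call. With genotype and number as the block, 1 passed in the averaged UVA comparison (Dkk2). That call did not hold without the trend (0 passed) or without any 1 of the 4 pairs (0 passed in each case), and the smaller number of samples lowers the residual degrees of freedom. It held without dim genes, with the mean of probe sets and with centred arrays. For no other count of genes passed did an alternative change the count. Alternatives to the genotype and number block were added after the data were seen.

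Directions were less stable than calls, as leaving out 1 array leaves its partner's number unbalanced. In number 1 alone, KO minus WT was -0.062 for Wnt5a, -0.11 for Wnt4, 0.13 for Sfrp1, -0.080 for Dkk2 and 0.075 for Axin2, and in number 2 alone -0.10 for Dkk3, each opposite to the average. Without 1 array at a time, KO minus WT ranged over -0.088 to 0.16 for Wnt4, -0.86 to 0.63 for Sfrp1, -0.10 to 0.19 for Dkk3, -0.16 to 0.056 for Wif1 and -0.43 to 0.13 for Axin2, while Wnt5a, Sfrp2, Dkk2, Fzd1 and Fzd7 stayed positive. UVA minus sham ranged over -0.83 to 0.43 for Wnt5a, -0.92 to 0.57 for Sfrp1, -0.36 to 0.31 for Sfrp2, -0.23 to 0.055 for Dkk3, -0.011 to 0.21 for Wif1, -0.25 to 0.31 for Axin2 and -0.049 to 0.080 for Fzd7, while Wnt4, Dkk2 and Fzd1 stayed negative. The interaction changed sign for all 10, over -1.25 to 1.27 for Wnt5a, -0.29 to 0.21 for Wnt4, -1.70 to 1.28 for Sfrp1, -0.80 to 0.54 for Sfrp2, -0.63 to 0.69 for Dkk2, -0.27 to 0.30 for Dkk3, -0.39 to 0.051 for Wif1, -0.27 to 0.85 for Axin2, -0.17 to 0.030 for Fzd1 and -0.14 to 0.11 for Fzd7. With genotype and number as the block and 1 pair left out, UVA minus sham ranged over -0.081 to 0.028 for Sfrp2, -0.088 to 0.29 for Wif1 and -0.080 to 0.11 for Fzd7. Over all alternatives with that block it stayed negative for Wnt5a (-0.27 to -0.13), Sfrp1 (-0.24 to -0.10) and Dkk3 (-0.11 to -0.060). Wnt4, Dkk2 and Fzd1 stayed negative there too. With the mean of its probe sets, UVA minus sham of Axin2 was -0.032 without a block and -0.032 with it.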
